A study of Mus musculus with 12 samples.

Results

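The major urinary proteins are small secreted lipocalins, encoded in the mouse by a tandem array of Mup genes on chromosome 4. Described here are 10 of them, Mup1, Mup3, Mup7, Mup10, Mup11, Mup12, Mup16, Mup17, Mup20 and Mup21, taken by gene symbol from the 55421 genes of the deposited liver count table. The table holds 22 rows with a Mup symbol and a number, and 27 Mup pseudogene rows. As background, the liver makes these proteins, the kidney passes them into the urine, and there they bind and slowly release volatile pheromones. Mup20, also called darcin, is itself a pheromone of male scent marks, and circulating Mup1 is known as a regulator of glucose and lipid metabolism. Liver Mup transcription is driven by pulsatile growth hormone through Stat5, by androgens, by glucocorticoids and by thyroid hormone, and is much higher in males than in females.

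The 12 libraries are total RNA, depleted of ribosomal RNA, from livers of WT mice that all carried an orthotopic E0771 tumour, a mouse mammary carcinoma line, and that were sampled at day 21. The mice were housed at 6, 22 or 29 °C, with 4 libraries at each temperature, numbered 1 to 4, 5 to 8 and 9 to 12. All 3 groups carried tumours, so no comparison here is with a tumour-free liver. The study asked how housing temperature bears on tumour-associated wasting, 29 °C being near the thermoneutral zone of the mouse. The growth protocol names both Balb/C and C57Bl6/J mice without giving the strain of each library, and the labels do not say that libraries came from separate animals, so p-values measure the spread between libraries.

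Counted reads per library ranged from 7615585 to 19001126. Levels below are CPM (counts scaled to library size, with TMM factors), on which 3 counts, taken as the limit of detection, correspond to 0.151 to 0.399 CPM depending on the library. Markers of hepatocytes, the cells that make Mups, were present throughout, with 13 of 13 listed genes detected and a sum of 106134 to 219984 CPM. Xist lay between 1433 and 2869 CPM in every library, and none of 4 Y-linked genes had more than 3 counts in any library, the pattern of female livers; the labels used here give no sex. Mammary and submaxillary gland markers, listed because those glands also make Mups, summed to at most 0.3 CPM, with 6 of the 8 genes at 0 in every library. In 4 libraries, 1 (6 °C), 7 and 8 (22 °C) and 9 (29 °C), the pseudogene H2-Ea-ps had 134 to 248 counts, against 0 in the other 8. H2-Ea-ps is a class II histocompatibility gene that is not transcribed in C57BL/6 mice. These 4 libraries are not a group of the study, so the results on single members are also given without them or with a term for them, and the lists of other genes with that term.

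The 10 members fall into sequence classes that decide how well reads can be assigned. Mup1, Mup7, Mup10, Mup11, Mup12, Mup16 and Mup17 (called the 7 central members below, after their place in the array) share 98.7% to 99.6% of coding bases pairwise in GENCODE vM21 on GRCm38. Mup20 shares 90.6% to 91.5% with them and Mup3 85.1% to 86.0%, and Mup3 and Mup21 share 96.3% with each other. A 90-base coding stretch shows the classes side by side, with capitals marking bases that differ from Mup17. It was picked as the gapless stretch in which most members, and then most bases of the central members, differ from Mup17. It therefore does not stand for the rate of differences over the whole coding sequence. Mup16 has the same letters there as Mup1, Mup11 and Mup12, and Mup21 the same as Mup3.
Mup17: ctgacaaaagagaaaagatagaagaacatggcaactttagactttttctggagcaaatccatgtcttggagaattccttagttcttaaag
Mup16: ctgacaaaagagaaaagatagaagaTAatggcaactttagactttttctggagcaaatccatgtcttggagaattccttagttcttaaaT
Mup7: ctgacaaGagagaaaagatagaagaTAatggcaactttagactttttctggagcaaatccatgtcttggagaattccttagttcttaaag
Mup20: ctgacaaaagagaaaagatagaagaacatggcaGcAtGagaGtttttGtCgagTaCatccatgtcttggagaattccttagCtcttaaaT
Mup3: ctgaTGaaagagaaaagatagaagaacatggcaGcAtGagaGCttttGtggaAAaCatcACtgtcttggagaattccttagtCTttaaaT
Within these 90 bases Mup16 and Mup7 each differ from Mup17 at 3 positions, Mup20 at 10 and Mup3 at 16. Of all 50-base stretches of the annotated transcripts, 86.7% were found in no other gene for Mup3, 80.7% for Mup21 and 49.5% for Mup20. For the central members this share ran from 8.29% for Mup16 through 21.9% for Mup17 to 38.4% for Mup1. How the counting treated reads that match several genes is not given in the sources used here. Counts of single central members are therefore uncertain as to which copy the reads came from, and their sum is given beside them.

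**Figure D1:**
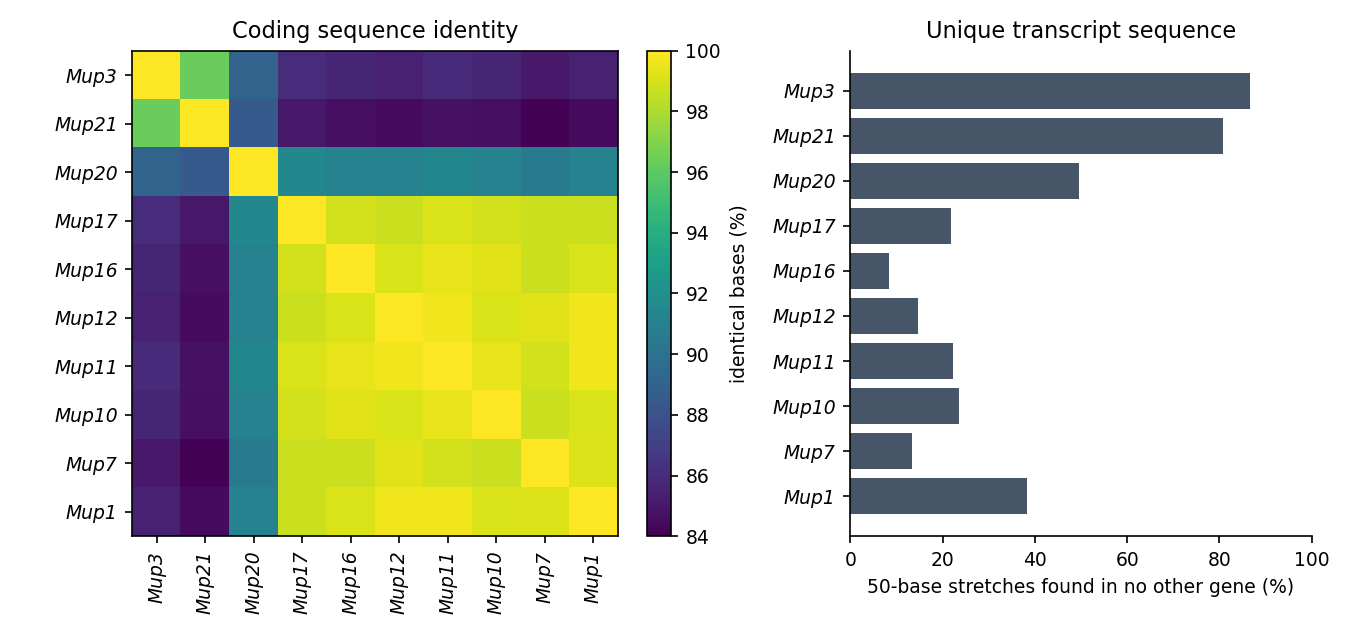
Left, coding sequence identity (%) between each pair of members. Right, share (%) of 50-base transcript stretches found in no other gene. The 7 central members form a block of 98.7% to 99.6% identity and have 8.29% to 38.4% unique stretches, against 86.7% for Mup3.

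All 10 members lie on the minus strand of chromosome 4 between positions 60066469 and 62150863 (GRCm38), a span of 2.08 Mb. Mup3 (ENSMUSG00000066154.11) occupies chr4:62083476-62087342, with Mup20 and Mup21 on either side of it at the far end of the array, and Mup17 (ENSMUSG00000096688.1) occupies chr4:61591929-61595871. The 250 bases before the start of Mup17 and of Mup3 are shown because these are the members with the most counts in their classes. The RefSeq start lies inside the GENCODE gene given above, so 39 bases of the Mup17 window and 25 of the Mup3 window, TATATAAG included, belong to the annotated GENCODE gene. They come from RefSeq (GRCm38.p6, minus strand, chr4:61595833-61596082 and chr4:62087318-62087567), and capitals mark the letters TATATAAG.
Mup17 upstream: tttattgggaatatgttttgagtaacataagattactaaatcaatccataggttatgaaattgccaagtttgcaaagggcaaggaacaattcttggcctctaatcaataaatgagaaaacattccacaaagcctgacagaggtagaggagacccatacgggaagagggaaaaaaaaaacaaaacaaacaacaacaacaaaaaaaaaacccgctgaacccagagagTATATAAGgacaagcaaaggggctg
Mup3 upstream: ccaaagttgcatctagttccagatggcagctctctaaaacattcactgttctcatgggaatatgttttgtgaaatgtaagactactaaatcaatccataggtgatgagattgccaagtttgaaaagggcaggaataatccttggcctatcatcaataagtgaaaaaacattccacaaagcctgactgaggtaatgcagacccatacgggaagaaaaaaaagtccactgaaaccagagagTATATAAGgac
The aligned parts of these windows are 87.6% identical. RefSeq promoter windows were matched for 6 of the 10 members (Mup3, Mup7, Mup10, Mup11, Mup17 and Mup21). TATATAAG, picked after these sequences were seen and searched on both strands, occurs in 4 of the 6, in Mup3, Mup10, Mup17 and Mup21, with its first base 8 to 30 bases before the RefSeq start, and in 0.935% of the same windows of 32851 promoters. The Mup11 window ends partway into the place where Mup17 has these letters, and the Mup7 window ends before that place. Their lack of a match therefore does not show that the letters are absent. TTCNNNGAA, the letters that Stat5 binds, occurs in none of the 6 windows and in 7.02% of all of them so that it overlaps no TATATAAG there. These matches describe letters in a window of 250 bases and say nothing of whether a factor binds.

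Mup3 was the most abundant Mup transcript in every library, holding 75.0% to 98.9% of the counts of the 22 Mup rows. Libraries 1 to 4, at 6 °C, had 104, 731, 644 and 530.0 CPM. At 22 °C it was 1216 and 1001 CPM in libraries 5 and 6 and 83.7 and 175 CPM in libraries 7 and 8. Levels at 29 °C were 107, 196, 292 and 284 CPM in libraries 9 to 12. The lowest library at each temperature was one with H2-Ea-ps counts, and the ranges of all 3 temperatures overlapped.

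Group means of Mup3 were 502 ± 278 CPM at 6 °C, 619 ± 573 CPM at 22 °C and 219.7 ± 86.9 CPM at 29 °C (SD, n = 4 each). None of the 3 differences passed the test. The log2 fold change was -1.19 (SE 0.82) at 29 against 6 °C, with an edgeR adjusted p of 0.459, and -1.49 (SE 0.82) at 29 against 22 °C, with an edgeR adjusted p of 0.417. Between 6 and 22 °C it was -0.30 (SE 0.81), with an edgeR adjusted p of 0.921. Over all 15006 genes tested, 2.53% were called at 29 against 6 °C, 0% at 29 against 22 °C and 0.0333% at 6 against 22 °C. In bulk liver, fewer cells of a type and less RNA per cell cannot be told apart.

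Among the 8 libraries without H2-Ea-ps counts, Mup3 did not overlap between any 2 temperatures, which in groups of 2 or 3 was common. Of the 15006 genes, 30.1% did not overlap there at 29 against 6 °C, 53.8% at 29 against 22 °C and 41.5% at 6 against 22 °C. Mup3 was 530.0 to 731 CPM at 6 °C (3 libraries), 1001 to 1216 CPM at 22 °C (2 libraries) and 196 to 292 CPM at 29 °C (3 libraries). In an edgeR fit to these 8 libraries alone Mup3 fell at 29 against 6 °C (log2 fold change -1.30, adjusted p 0.00167) and at 29 against 22 °C (-2.11, adjusted p 0.000221). It was also lower at 6 than at 22 °C there (-0.81, edgeR adjusted p 0.0328). The same fit called 9.91%, 17.1% and 6.69% of 15173 genes in these comparisons, so calls were common among all genes as well. With all 12 libraries and a term for H2-Ea-ps counts, Mup3 fell at 29 against 22 °C (-1.43, edgeR adjusted p 0.0468) but was not called at 29 against 6 °C (-0.89, edgeR adjusted p 0.118). In that fit 12.6%, 3.44% and 0.367% of the 15006 genes were called at 29 against 6 °C, 29 against 22 °C and 6 against 22 °C.

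**Figure D2:**
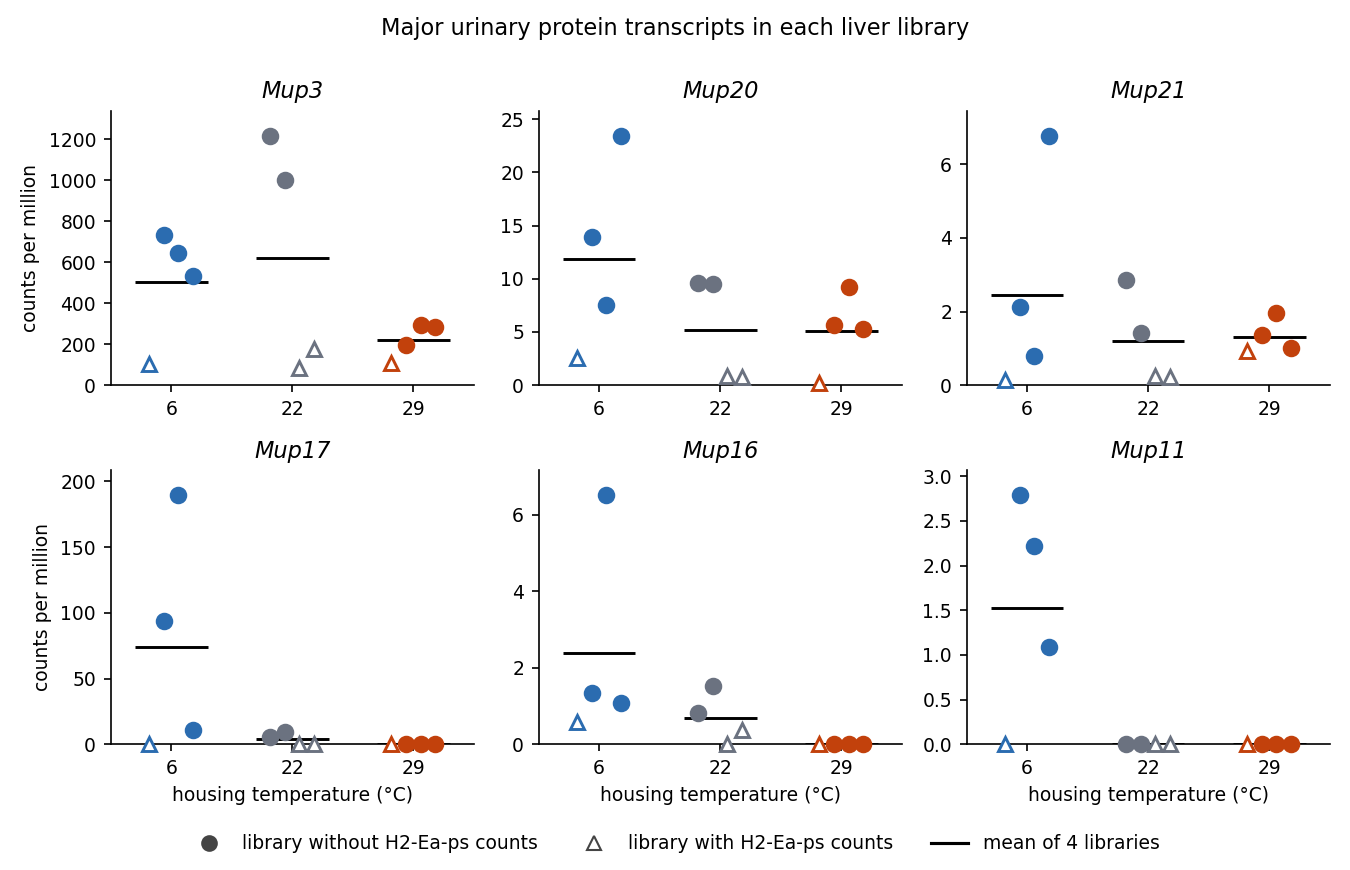
CPM (linear axis, one scale per panel) of 6 members in each library by housing temperature, with triangles for the 4 libraries that have H2-Ea-ps counts and lines for the mean of 4 libraries. Mup3 in libraries with H2-Ea-ps counts stays between 83.7 and 175 CPM at every temperature, and Mup17, Mup16 and Mup11 have no counts at 29 °C.

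Mup20 and Mup21, the neighbours of Mup3, were detected at all 3 temperatures. Mup20 measured 2.59, 14.0, 7.55 and 23.4 CPM in libraries 1 to 4, 9.60, 9.47, 0.894 and 0.747 CPM in libraries 5 to 8, and 0.232, 5.63, 9.26 and 5.29 CPM in libraries 9 to 12. As with Mup3, each library with H2-Ea-ps counts was below every library without them at its own temperature, and the temperatures overlapped. Its log2 fold change was -1.20 (SE 1.01) at 29 against 6 °C and 0.02 (SE 1.02) at 29 against 22 °C, with edgeR adjusted p of 0.562 and 0.997. With the H2-Ea-ps term Mup20 fell at 29 against 6 °C (-1.43, SE 0.36, edgeR adjusted p 0.0204), and in the 8 libraries without those counts it was not called (-1.14, edgeR adjusted p 0.0852).

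Mup21, the closest relative of Mup3 in coding sequence, was the lowest of these 3 in mean level per kilobase at every temperature. Libraries 1 to 4 had 0.144, 2.13, 0.794 and 6.78 CPM, libraries 5 to 8 had 2.86, 1.43, 0.255 and 0.224 CPM, and libraries 9 to 12 had 0.926, 1.36, 1.96 and 1.02 CPM. The level at 6 °C rests on library 4, and the groups overlapped. No comparison was called, in this fit or under any of 20 alternatives: the log2 fold change was -0.88 (SE 0.92) at 29 against 6 °C and 0.19 (SE 0.94) at 29 against 22 °C, with edgeR adjusted p of 0.651 and 0.943.

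The 7 central members were counted at 6 °C and, in fewer libraries and at lower levels, at 22 °C, and had no count in any library at 29 °C. Their sum was 22, 742, 2508 and 160 counts in libraries 1 to 4. It was 68 and 110 counts in libraries 5 and 6, then 0 and 6 in libraries 7 and 8. All 4 libraries at 29 °C had 0 counts, which at their depth allows at most 0.0460 CPM over the group. Pooled over libraries the sum was 74.7 CPM at 6 °C and 3.70 CPM at 22 °C, so it was at least 1623-fold higher at 6 °C and at least 80.4-fold higher at 22 °C than the floor at 29 °C. Library 3 held most counts at 6 °C and library 6 most at 22 °C, and without them the bounds were 602-fold and 40.3-fold. All these bounds are on pooled levels and cover counting error only. They do not cover the spread between libraries, from 1.58 to 199 CPM at 6 °C and from 0 to 11.2 CPM at 22 °C.

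Mup17 supplied most of these counts. It measured 0.432, 93.8, 189.7 and 11.04 CPM in libraries 1 to 4, 5.44, 9.68, 0 and 0 CPM in libraries 5 to 8, and 0 in libraries 9 to 12. Every library at 6 °C lay above every library at 29 °C, and library 1, with H2-Ea-ps counts, was the lowest at 6 °C. Means were 73.8 ± 87.9 CPM at 6 °C and 3.78 ± 4.69 CPM at 22 °C (SD, n = 4 each), so the spread at each temperature was larger than the mean.

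The pooled level of Mup17 was at least 1528-fold higher at 6 °C and at least 67.3-fold higher at 22 °C than the 3-count floor at 29 °C, or 549.6-fold without library 3 and 32.1-fold without library 6. Mup17 did not pass the test at 29 against 6 °C, with an edgeR adjusted p of 0.114, nor at 29 against 22 °C (0.402) or 6 against 22 °C (log2 fold change 4.36, SE 1.90, edgeR adjusted p 0.432). With the H2-Ea-ps term it fell at 29 against 6 °C (edgeR adjusted p 0.0147), and in the 8 libraries without those counts it was not called (edgeR adjusted p 0.101). No fitted fold change is quoted as a size for Mup16 and Mup17 at 29 °C, because against a group at 0 it depends on the prior count.

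Mup16 was the one member called by temperature alone over all 12 libraries. Its counts were 8, 10, 82 and 13 in libraries 1 to 4, 9, 15, 0 and 5 in libraries 5 to 8, and 0 at 29 °C, or 0.576, 1.33, 6.51 and 1.09 CPM, then 0.831, 1.53, 0 and 0.373 CPM, then 0. All libraries at 6 °C were above all at 29 °C, whereas 22 °C overlapped both. Mup16 fell at 29 against 6 °C (edgeR adjusted p 0.0430), by at least 53.4-fold against the floor, or 20.2-fold without library 3. It entered the test through the colder libraries alone, and Mup17 did likewise. At 29 against 22 °C it was at least 12.7-fold lower against the floor (7.62-fold without library 6), with an edgeR adjusted p of 0.213, and at 6 against 22 °C the log2 fold change was 1.86 (SE 1.03, edgeR adjusted p 0.496).

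The Mup16 call was lost in 9 of 12 fits that left out 1 library, all but those without library 1, 6 or 7, with edgeR adjusted p from 0.0230 to 0.114. It was kept with the H2-Ea-ps term (0.00342) and in the 8 libraries without those counts (edgeR adjusted p 0.00716), and both of these fits also called Mup16 lower at 29 than at 22 °C (0.0403 and 0.0159). Mup16 and Mup17 were the 2 of the 5 tested members whose libraries did not overlap between 29 and 6 °C, where 13.3% of all genes tested did not overlap. Having no counts at 29 °C and passing the filter through colder libraries alone, both could only be lower there. The refits and this share therefore add nothing to their counts. No tested member was without overlap at 29 against 22 °C or at 6 against 22 °C, where 7.68% and 6.33% of genes were.

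**Figure D3:**
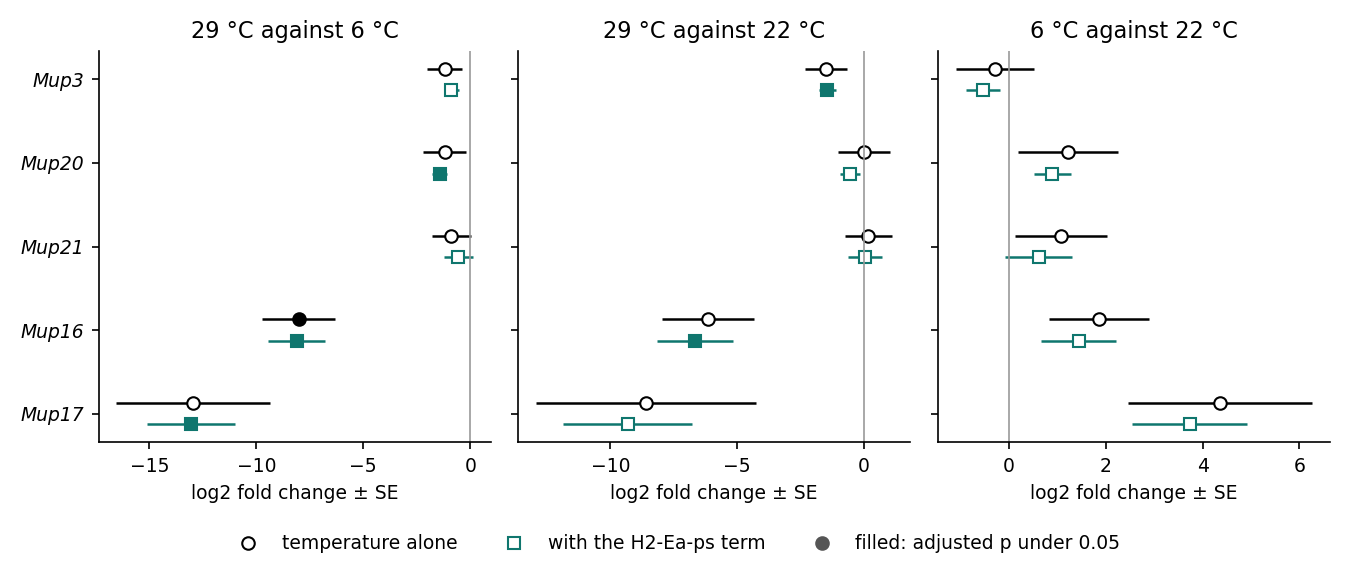
Log2 fold change with its standard error for the 5 tested members in 3 comparisons (x scales differ between panels), by temperature alone (circles) and with the H2-Ea-ps term (squares), filled where adjusted p is under 0.05. Circles are filled for Mup16 at 29 against 6 °C alone, and values for Mup16 and Mup17 at 29 °C depend on the prior count because that group is at 0.

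Mup1, Mup7, Mup10, Mup11 and Mup12 stayed under the low-count filter and were not tested. Mup11 had 0, 21, 28 and 13 counts in libraries 1 to 4 and 0 in the other 8, so its pooled level was at least 29.3-fold higher at 6 than at 29 °C and at least 22.4-fold higher at 6 than at 22 °C. Mup1 had 7, 1, 3 and 0 counts at 6 °C and Mup12 had 0, 2, 4 and 2, with 0 in every other library for both. Mup7 had 5 counts at 6 °C and 1 at 22 °C, and the only count of Mup10 was in library 2. In the fit to the 8 libraries without H2-Ea-ps counts Mup11 passed the filter, through its counts at 6 °C alone, so that its calls in that fit add nothing to these counts.

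Compared per kilobase of exon, so that genes of different length can be set side by side, Mup3 led at every temperature with 470 ± 260 CPM per kb at 6 °C (SD, n = 4). Next at 6 °C came Mup17 (79.6 ± 94.8), Mup20 (12.8 ± 9.69), Mup21 (3.63 ± 4.42), Mup16 (2.29 ± 2.67) and Mup11 (0.968 ± 0.787 CPM per kb). From Mup17 down, neighbours in this order differed by less than their spread. At 29 °C the order was Mup3 (206 ± 81.4), Mup20 (5.497 ± 3.999) and Mup21 (1.95 ± 0.694 CPM per kb), with the central members at 0 and the last pair again within the spread. Mup20 thus stood below Mup17 at 6 °C but above it at 22 °C, where their means were 5.58 ± 5.42 and 4.08 ± 5.06 CPM per kb, a gap within the spread.

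**Figure D4:**
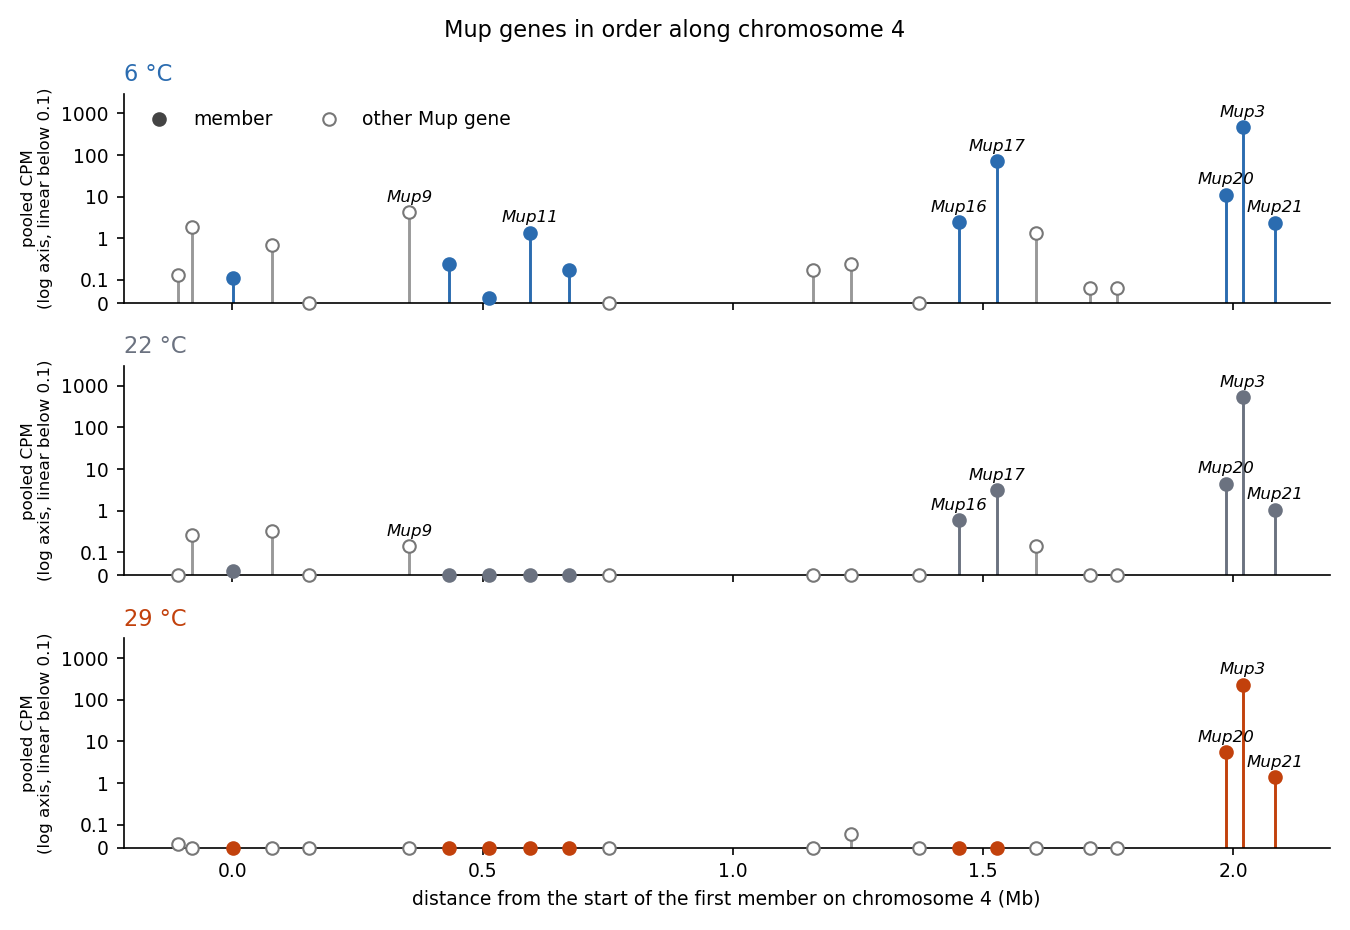
Pooled CPM over 4 libraries (log axis, linear below 0.1) of each Mup gene by its distance (Mb) from the first member on chromosome 4, 1 panel per temperature, with filled points for members. Counts extend across the array at 6 °C, and at 29 °C Mup3, Mup20 and Mup21 at its far end hold nearly all of them.

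Of the Mup genes outside the 10 members, most counts were at 6 °C. Mup9, a further gene of the central type, had 188 counts (13.5 CPM) in library 1 and at most 0.448 CPM elsewhere. Library 1 thus differed from libraries 2 to 4 in which gene held its central-type counts: Mup17 held 2.41% of them there (exact 95% interval 0.889% to 5.17%), and 92.9%, 93.6% and 72.9% in libraries 2, 3 and 4. Central-type counts are those of all Mup rows but Mup3, Mup4, Mup5, Mup6, Mup20 and Mup21. At 22 °C Mup17 held 80.8% and 79.8% of them in libraries 5 and 6. It held 0% in libraries 7 and 8, which have H2-Ea-ps counts but only 4 and 18 central-type counts. Library 12, without H2-Ea-ps counts, had 4, also with 0% Mup17. Chosen after its values were seen, the pseudogene Mup-ps13, which lies between Mup16 and Mup17, had 1.99 to 4.39 CPM in all 4 libraries at 6 °C, 0.0639 to 0.738 CPM at 22 °C and 1 count in all at 29 °C. Mup14, with 11 counts at 6 °C, 0 at 22 °C and 4 at 29 °C, and Mup4, with 6, 0 and 1, did not follow that order.

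Summed over the 10 members, the level was 108, 845, 852 and 574 CPM in libraries 1 to 4, 1234, 1023, 84.9 and 176 CPM in libraries 5 to 8, and 108, 203, 303 and 290.3 CPM in libraries 9 to 12. Mean log2 levels were 8.84 (SD 1.42) at 6 °C, 8.53 (SD 1.90) at 22 °C and 7.71 (SD 0.69) at 29 °C. The difference was -1.13 at 29 against 6 °C, -0.82 at 29 against 22 °C and 0.31 at 6 against 22 °C, and each was smaller than the SD of the colder group or, for 6 against 22 °C, of both groups. Without the libraries with H2-Ea-ps counts these differences were -1.51, -2.10 and -0.59, so that the order of 6 and 22 °C turned. The sum follows Mup3. For the other 9 members alone the differences over all 12 libraries were -3.23, -0.06 and 3.17. In libraries without H2-Ea-ps counts these 9 summed to 43.6 to 208 CPM at 6 °C, 18.7 to 22.1 at 22 °C and 6.30 to 11.2 at 29 °C. In those with them the sum was 4.32 CPM at 6 °C, 1.15 and 1.42 at 22 °C and 1.16 at 29 °C. The -0.06 thus averages over libraries on both sides of that split. No test was made on a sum, since the members were chosen with results of these data known.

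**Figure D5:**
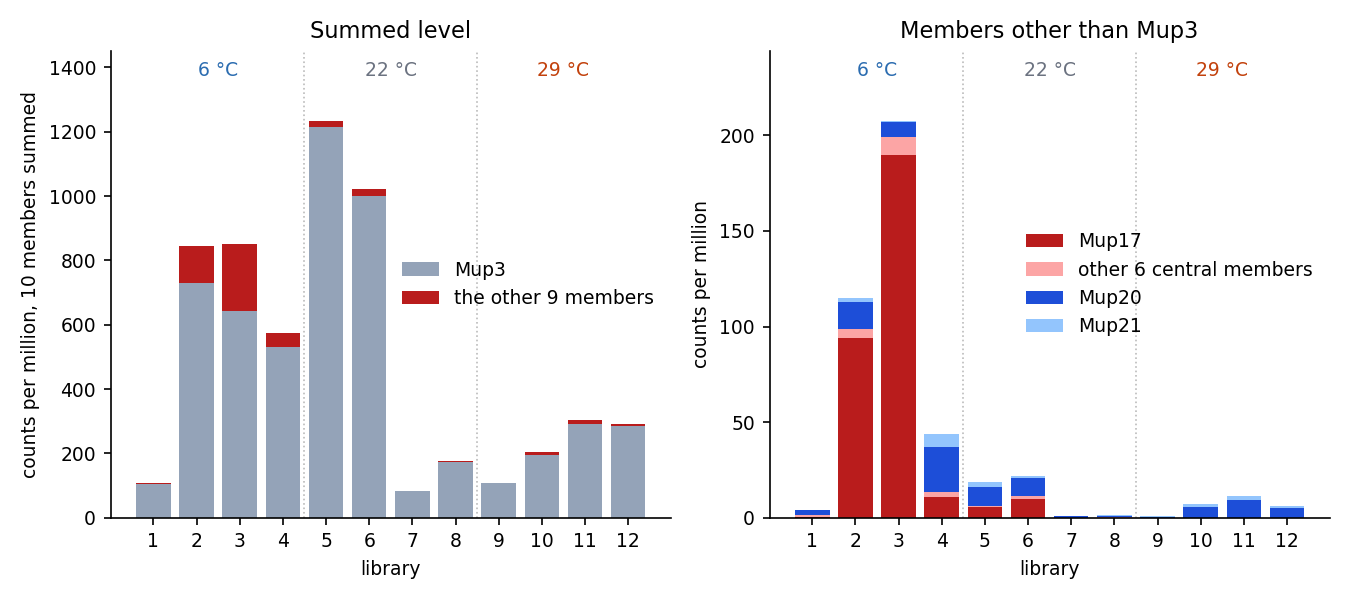
CPM per library summed over the 10 members (left, Mup3 in grey and the other 9 in red) and over the members other than Mup3 (right, by gene). Mup3 fills most of every bar on the left, and on the right Mup17 reaches 189.7 CPM in library 3 and is absent from libraries 7 to 12.

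Split by H2-Ea-ps counts alone, the summed level was 84.9 to 176 CPM in the 4 libraries with them, at 3 housing temperatures, and 203 to 1234 CPM in the 8 without, with no overlap. Mup3 (83.7 to 175 against 196 to 1216 CPM) and Mup20 (0.232 to 2.59 against 5.29 to 23.4 CPM) did not overlap either. The other 8 members did, among them Mup21 (0.144 to 0.926 against 0.794 to 6.78 CPM) and Mup17 (0 to 0.432 against 0 to 189.7 CPM). Over the 15006 genes tested, 9.38% did not overlap across this split. Some lists of other genes also differed across the split and some did not. Summed hepatocyte markers were 106134 to 124198 CPM with H2-Ea-ps counts and 129027 to 219984 CPM without, and summed neutrophil markers 832 to 2577 and 30.9 to 811 CPM. Stellate cell markers summed to 665 to 971 and 391 to 623 CPM, and Kupffer cell markers, which overlapped, to 412 to 638 and 513 to 1352 CPM. Endothelial markers (468 to 581 and 433 to 719 CPM) and cholangiocyte markers (52.2 to 60.9 and 34.5 to 85.0 CPM) overlapped too. So did the summed growth hormone genes and other lipocalins described below. No marker of the hepatocyte, neutrophil, stellate and Kupffer cell lists was at 0 in all libraries. The part of these cell types in the Mup levels was not tested.

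Most genes listed as hormone receptors and factors of Mup transcription had negative fold changes at 29 against 6 °C. Of them 1 passed the test, where 2.53% of all genes did. Whether each listed gene acts on Mup genes was not tested. Of 17 receptors and factors, 14 had a negative log2 fold change at 29 against 6 °C (median -0.32, against 0.00 over all genes) and 1 fell, Esr1, the oestrogen receptor of hepatocytes. Esr1 was 141, 115, 107 and 126 CPM in libraries 1 to 4, 111, 112, 59.3 and 74.9 CPM in libraries 5 to 8 and 47.8, 72.8, 61.4 and 59.4 CPM in libraries 9 to 12, a log2 fold change of -1.02 (SE 0.20, edgeR adjusted p 0.0249) at 29 against 6 °C. Ghr, the growth hormone receptor (-0.68, edgeR adjusted p 0.0775), and Nfib, a nuclear factor I (-0.54, 0.0968), were not called by temperature alone. With the H2-Ea-ps term, in which 12.6% of all genes were called, 4 of the 17 fell at 29 against 6 °C, among them Esr1, Ghr (edgeR adjusted p 0.0146) and Nfib (0.0320). Cebpa, a liver-enriched transcription factor, was at -0.09 (edgeR adjusted p 0.884) at 29 against 6 °C and 0.89 (0.179) at 29 against 22 °C, where it was called higher with the term (1.02, 0.0403). In that comparison the term called 4 of the 17, 3 of them lower, against 3.44% of all genes. Of 14 genes of growth hormone signalling and its targets none was called at 29 against 6 °C (median -0.29), and Igf1, the main secreted target, was at -0.80 (edgeR adjusted p 0.0656). With the term 2 of the 14 fell, Ghr and Igf1 (edgeR adjusted p 0.0169).

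Mups are the best-known sex-biased liver transcripts, so other genes of that kind were set beside them. Of 15 male-biased liver genes 10 were tested. At 29 against 6 °C, 6 of them had a negative log2 fold change and 4 a positive one (median -0.37). By temperature alone 2 fell, where 2.53% of all genes were called. These were Ugt2b1, a glucuronosyltransferase (log2 fold change -1.19, edgeR adjusted p 0.00347), and Cyp7b1, an oxysterol hydroxylase (-0.87, 0.0436). With the H2-Ea-ps term the same 2 were called, against 12.6% of all genes. Of 18 female-biased liver genes 16 had a negative log2 fold change (median -0.79) and 0 were called at 29 against 6 °C by temperature alone, and with the term 4 fell, against 12.6% of all genes called. Sult2a1, a sulfotransferase, was at -2.33 (edgeR adjusted p 0.0606, and 0.0379 with the term). A1bg, a secreted plasma protein, was most abundant in libraries 2 to 4, with 3.02, 513, 234 and 905 CPM in libraries 1 to 4, 120.0, 93.2, 0.958 and 10.8 CPM in libraries 5 to 8 and 3.01, 22.1, 47.1 and 28.9 CPM in libraries 9 to 12. Its log2 fold change at 29 against 6 °C was -4.03 (SE 1.61), with an edgeR adjusted p of 0.204, and 0.0399 with the term.

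Other lipocalins, which share the protein fold of the Mups, showed no called change at 29 against 6 °C by temperature alone. Of 12 listed 9 were tested, 8 of them with a negative log2 fold change (median -0.41). Ptgds, prostaglandin D synthase, was at -1.89 (edgeR adjusted p 0.120) and was the 1 called with the H2-Ea-ps term (0.0243). The fit with that term called 12.6% of all genes at 29 against 6 °C. Orm1, an acute phase glycoprotein, was at -0.98 (edgeR adjusted p 0.206) and Apom, an apolipoprotein, at -0.05 (0.931). Of 20 other secreted plasma protein genes and 13 hepatocyte markers, 0 were called, with medians of -0.02 and -0.21 at 29 against 6 °C. With the term 2 of the 13 hepatocyte markers fell, the urea cycle genes Cps1 (edgeR adjusted p 0.00956) and Ass1 (0.00255). Of the 20 plasma protein genes 0 fell, where 12.6% of all genes were called. The 5 tested cholangiocyte, 8 endothelial, 8 stellate, 10 Kupffer cell, 10 neutrophil and 7 erythroid markers had medians of 0.22, 0.24, 0.10, 0.62, 1.34 and 1.18 in that comparison, and 0 were called by temperature alone. With the term 2 of the 10 neutrophil markers rose, among them Camp (edgeR adjusted p 0.00186). So did 1 of the 8 endothelial markers, Stab2 (0.0327), and 1 of the 7 erythroid markers, Hba-a1 (0.0462). These counts also stand against 12.6% of all genes called. Of 3 tested intestinal markers 1 rose, Lgals4 (1.94, edgeR adjusted p 0.0459), and 2 with the term. Lgals4 was 40.1 CPM in library 11 and 15.5 to 21.8 CPM in the other libraries at 29 °C, against 3.85 to 10.1 CPM at 6 °C. Library 11 also had the most Krt19 (13.6 CPM) and Epcam (16.7 CPM), cholangiocyte markers that were at most 3.65 and 1.53 CPM elsewhere. All listed intestinal markers summed to 31.9 to 543 CPM at 29 °C, with a median of 37.6 CPM. Over all genes 2.53% were called by temperature alone and 12.6% with the term. The part of these cells in the Mup levels was not tested.

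Along the chromosome, 6 annotated rows without a Mup symbol lie inside the span of the members, 0 of them protein-coding, and 2 were tested. Gm13775, a non-coding transcript beside Mup19 that spans the pseudogene Mup-ps16 on the same strand, had 2, 57, 163 and 80 counts at 6 °C, 15, 29, 0 and 0 at 22 °C and 0, 1, 0 and 0 at 29 °C. It was called lower at 29 against 6 °C (edgeR adjusted p 0.0469), and the labels do not say whether counting used strand. Like Mup16 and Mup17, Gm13775 passed the filter through colder libraries alone, so the direction of this call was set by the filter. Libraries 1, 7 and 8, which have H2-Ea-ps counts, held its lowest counts at 6 and 22 °C. Gm12909, annotated upstream of Mup3 on the opposite strand, was 5.62, 5.45, 6.44 and 4.60 CPM in libraries 1 to 4, 6.28, 5.60, 0.702 and 5.15 CPM in libraries 5 to 8 and 2.24, 0.682, 0.956 and 1.22 CPM in libraries 9 to 12. Library 1 was thus high in Gm12909 and low in Mup3, and the log2 fold change at 29 against 6 °C was -2.13 (edgeR adjusted p 0.0530). None of the 3 tested protein-coding genes nearest the array on each side was called: Snx30, Inip, E130308A19Rik, Slc31a2, Fkbp15 and Slc31a1 had log2 fold changes of -0.38 to 0.31 at 29 against 6 °C.

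Genes whose levels ran most closely with the summed Mup level were picked by Pearson's r of log2(CPM + 1) over 12 libraries among 12315 genes, as a description. They were Naa80, an actin N-terminal acetyltransferase (0.97), Mcc (0.97), Adgra3, an adhesion receptor (0.97), Ngly1, a peptide N-glycanase (0.96), and Psmd5, a proteasome assembly chaperone (0.96). Within the 8 libraries without H2-Ea-ps counts r was 0.89 to 0.96 for these 5. Alpl, the tissue-nonspecific alkaline phosphatase, ran most opposite (-0.97, and -0.98 in the 8 libraries), followed by Hist4h4 (-0.96) and Rasd1 (-0.96). These libraries share depth and composition, and 486 genes had r above 0.8, so a high r sets no gene apart.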

How the data were processed

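Liver RNA from 12 libraries was sequenced after depletion of ribosomal RNA. The authors deposited raw counts per gene in 1 table, per the file headers. Upstream software was STAR 2.6.1a, bcl2fastq and DESeq2 1.44.0 on build GRCm38 according to the submitters' processing notes, which give no roles. What counted the reads, whether strand was used and how reads matching several genes were treated is not given in the sources used here. The members and the gene lists were chosen with earlier results of these data known. Groups follow the housing temperature in the labels. Counts were fitted in R 4.3.3 with edgeR 4.0.16 (TMM scaling, filterByExpr, robust quasi-likelihood test, two-sided) over all 12 libraries with a mean per temperature (9 residual degrees of freedom). Of 55421 genes, 15006 passed the filter, 5 members among them. P-values were Benjamini-Hochberg adjusted over all genes tested, at a threshold of 0.05. The fit was tested on simulated data. CPM used TMM-scaled library sizes, and folds against a group at 0 used a floor of 3 counts over the group. Intervals of shares are exact Clopper-Pearson and, like the floors, cover counting error only. The 18 pairs of libraries within a temperature differed by 13.8 to 150 in chi-square per degree of freedom, so none is a duplicate. Positions, coding sequences and 50-base uniqueness came from GENCODE vM21, to which 54587 identifiers matched. Alternatives were DESeq2 1.42.0 and its size factors, limma 3.58.1 voom, no filter, other library sizes and sets, a term for H2-Ea-ps counts (a split set from the data), and leaving out each library. Named besides the members were Mup rows with a mean of at least 1 CPM, up to 4 genes per list with the lowest unadjusted p, genes inside or beside the array, and the 5 most alike and 3 most opposite genes. Mup4, Mup6 and Mup14 were named outside this rule.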

Additional observations from a re-analysis of the deposited data

Results flagged for a closer look

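Mup16 at 6 °C was 6.51 CPM in library 3, far from the other 3 libraries at that temperature, of which the next highest was 1.33 CPM. The same library had the highest Mup17 level. Of 16 sets of 4 libraries looked at in this way 1 stood out, and chance gives about 1 in 20. Without library 3 the Mup16 call at 29 against 6 °C was lost, as it was without libraries 2, 4, 5, 8, 9, 10, 11 or 12.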

How the results depend on the processing

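At 29 against 6 °C, 1 member was called (Mup16). The count was 0 without the low-count filter and 0 in a fit to the 8 libraries compared, where Mup16 and Mup17 fell under that filter. It was 2 with DESeq2 (Mup16 and Mup17), 3 with the H2-Ea-ps term (Mup16, Mup17 and Mup20), 3 in the libraries without H2-Ea-ps counts (Mup3, Mup11 and Mup16), and 0 to 2 when 1 library was left out. Whole-table calls in this comparison moved from 379 to 1154 with DESeq2, 1110 with limma voom, 1884 with the term, 1504 in those 8 libraries and 41 to 439 with 1 library left out. Without library 1 the 2 calls were Mup11 and Mup16. At 29 against 22 °C, 0 members were called, and 2 with the term and 2 in those 8 libraries (Mup3 and Mup16 in both). At 6 against 22 °C, 0 were called, and 2 in those 8 libraries (Mup3 and Mup11). Both 0 counts held under every other alternative. Whole-table calls at 29 against 22 °C were 0, and 15 without the filter, 314 with DESeq2, 43 with limma voom, 516 with the term, 2594 in those 8 libraries and 0 to 78 with 1 library left out. At 6 against 22 °C they were 5, and 157 with DESeq2, 55 with the term and 1015 in those 8 libraries. Mup11, Mup16 and Mup17 have no counts at 29 °C and enter a test through colder libraries alone, so their direction in such calls was set by the filter. Some uncalled differences changed sign, and not all of these were near 0 in the main fit. Mup21, for 1, was at -0.88 at 29 against 6 °C and 1.07 at 6 against 22 °C there. Mup20 at 29 against 22 °C (0.02) was -0.025 with DESeq2, -0.53 with the term, -0.50 in the libraries without H2-Ea-ps counts and -0.44 to 0.52 with 1 library left out. Mup21 was 0.038 at 29 against 6 °C with limma voom (-1.28 to 0.45 with 1 library left out), -0.56 at 29 against 22 °C in the libraries without H2-Ea-ps counts (-0.16 to 1.13), and -0.27 to 2.01 at 6 against 22 °C. Mup3 at 6 against 22 °C was 0.27 with limma voom and -0.67 to 0.26 with 1 library left out. The summed level without Mup3, added after the data were seen like the fold bounds without 1 library, differed by -3.23 at 29 against 6 °C and 3.17 at 6 against 22 °C. With 1 library left out the summed level differed by -1.83 to -0.81, -1.53 to -0.24 and -0.40 to 1.01 in the 3 comparisons. The cause of these shifts was not tested. Members with fewer than 3 counts per library are not detectable at this depth. No paired analysis was possible because the labels number the libraries 1 to 12 and no number is shared between temperatures.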
